A study of Mus musculus with 130 samples.

Results

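Peg3, Usp29, Peg10, Sgce, Mest, Snrpn, Ndn, Plagl1, Impact and Nnat are imprinted genes that the mouse expresses from the copy inherited from the father. They were taken by symbol from the RNA-seq gene tables of mouse embryonic stem (ES) cells, and all 10 were found among the 52550 genes listed in each of 10 libraries. Of the 10 genes, 9 reached 1 CPM (a count scaled by library size) in all 10 libraries, and Usp29 was below that level in a single library, WT J1.

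An imprinted gene carries a mark of its parental origin in the form of DNA methylation at a control region, set in the germ line and kept through later cell divisions. At most of these genes the maternal copy is methylated and silent, so that loss of the mark is known to allow transcription from both copies. In ES cells the marks are kept by the maintenance methyltransferase Dnmt1, helped by the de novo enzymes Dnmt3a and Dnmt3b and by zinc finger proteins such as Zfp57. G9a (gene Ehmt2) and its partner GLP (gene Ehmt1) methylate histone H3 and can also recruit DNA methyltransferases.

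The libraries were single: each group had 1 library, so that no spread between cultures could be measured. The C57BL/6xCBA lines were a G9a-/-;GLP-/- line (G9a/GLP DKO, clone 248-6), a G9a-/- line carrying the transgene Tg(Y1120V;Y1207F) (G9a CM, clone G7) and their wild type, WT TT2. The 129S4/SvJae lines lacked Dnmt3a and Dnmt3b (Dnmt3a/3b DKO) or Dnmt1, Dnmt3a and Dnmt3b (Dnmt1/3a/3b TKO), and their wild type was WT J1. A separate set of wild-type TT2 cells received DMSO (inhibitor control) or the G9a and GLP inhibitor UNC0638 for 2, 4 or 14 days, at a dose given as 250 nM in the sample titles and as 250 µM in the treatment protocol. All cells were grown on gelatin with serum and LIF. Of the 130 samples of the series, 120 were not analysed here.

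Total expected counts ran from 11436808 (G9a/GLP DKO) to 25609600 (WT TT2). All 14 ES cell markers on the list reached 1 CPM in all 10 libraries, and the trophoblast gene Cdx2 was at 0 in 7 of them. Among the targeted genes, Ehmt1 stood at 7.95 CPM in G9a/GLP DKO, against 38.3 CPM in WT TT2. Ehmt2 stood at 17.9 CPM in G9a/GLP DKO and 27.8 CPM in G9a CM, against 14.6 CPM in WT TT2. Its count thus did not mark the first of these lines as a knockout, and that line is called below the G9a/GLP DKO-labelled library. The deleted exons are not known here, and a gene count does not test the genotype. Dnmt3b stood at 3.05 CPM in Dnmt3a/3b DKO and 2.68 CPM in Dnmt1/3a/3b TKO, against 26.9 CPM in WT J1. Dnmt3a stood at 4.30 CPM in Dnmt3a/3b DKO and 4.76 CPM in Dnmt1/3a/3b TKO, against 17.4 CPM in WT J1, but at 5.07 TPM in Dnmt3a/3b DKO and 4.49 TPM in Dnmt1/3a/3b TKO, against 4.66 TPM in WT J1. On the TPM scale Dnmt3a did not mark these lines. Dnmt1 stood at 6.35 CPM in Dnmt1/3a/3b TKO, against 46.6 CPM in WT J1.

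A gene is called higher or lower in a comparison where its log2(CPM + 1) differed by at least 1, it had at least 1 CPM in either library, and the exact 95% interval of the count ratio left out 1. Folds are ratios of CPM, and each range after a fold is that interval, which covers counting error only. In bulk RNA, fewer cells of a type and less RNA per cell cannot be told apart.

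**Figure D1:**
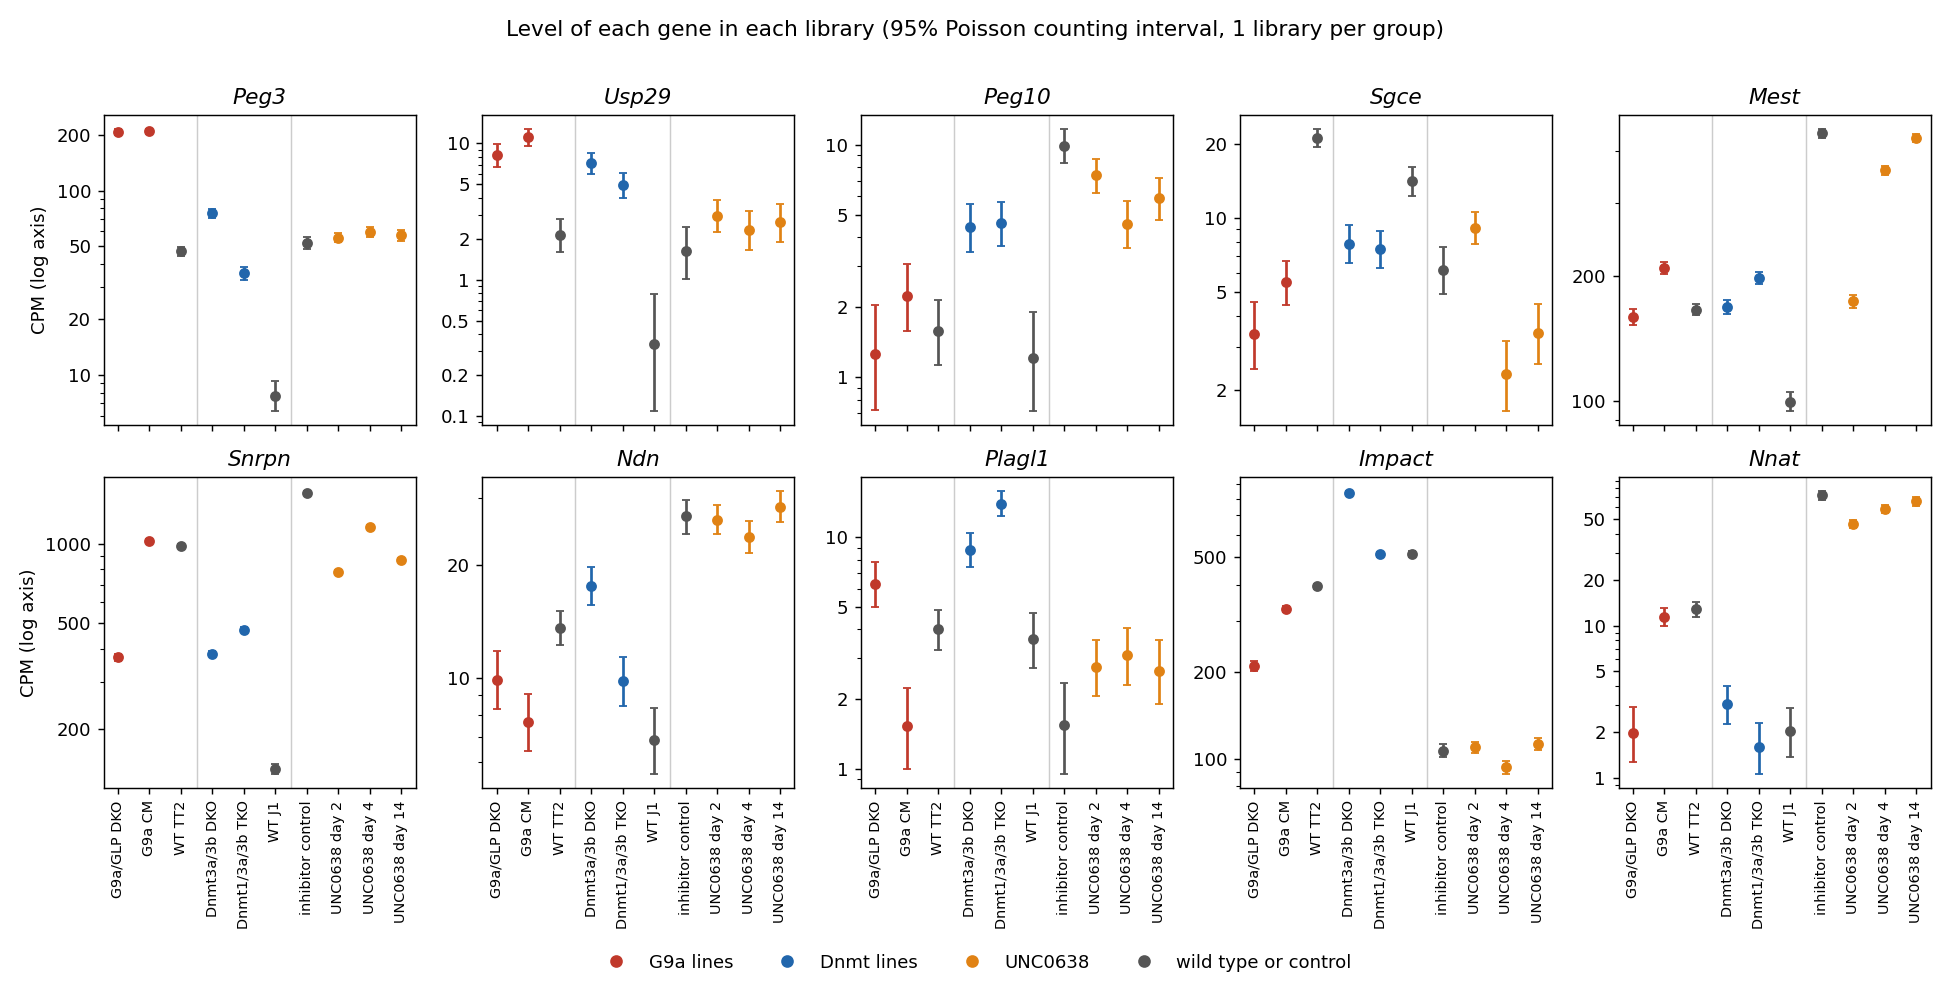
Level of each of the 10 genes in each library, in CPM on a log axis, with exact 95% Poisson counting intervals and 1 library per point. Peg3 and Usp29 are highest in both G9a lines, and Peg3 (7.72 CPM) and Snrpn (141 CPM) are lowest in WT J1.

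Peg3 (ENSMUSG00000002265.16) encodes a zinc finger protein, and Usp29 (ENSMUSG00000051527.11) encodes a member of the ubiquitin-specific protease family. They lie head to head at chr7:6703892-6730462 and chr7:6730559-6967220 of GRCm38.p6, 97 bases apart. Their start windows, 250 bases before to 50 bases after each annotated start, shared 263 bases. The Peg3 window, shown because it holds the start of the gene that was higher in all 4 mutant lines and most of the start window of its neighbour, has its 13 CG dinucleotides, the sites of DNA methylation, in capitals. It is read from RefSeq on the minus strand at chr7:6730370-6730669.

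Peg3 start window: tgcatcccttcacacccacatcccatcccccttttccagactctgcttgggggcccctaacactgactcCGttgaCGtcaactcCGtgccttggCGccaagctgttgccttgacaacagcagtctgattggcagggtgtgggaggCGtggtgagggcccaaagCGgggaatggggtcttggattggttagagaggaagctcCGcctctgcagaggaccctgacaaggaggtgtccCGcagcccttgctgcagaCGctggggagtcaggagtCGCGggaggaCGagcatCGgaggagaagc

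In the G9a/GLP DKO-labelled library and in G9a CM, Peg3 stood at 208 and 210 CPM, against 46.8 CPM in WT TT2. It stood at 75.2 CPM in Dnmt3a/3b DKO and at 35.6 CPM in Dnmt1/3a/3b TKO, against 7.72 CPM in WT J1. Each of the 4 mutant lines was above its own wild type, while Dnmt1/3a/3b TKO was below WT TT2. The inhibitor control had 52.1 CPM, and the cells had 55.5 CPM at day 2, 59.5 CPM at day 4 and 57.1 CPM at day 14 of UNC0638. The 3 inhibitor days thus lay close to the control, between 1.06 and 1.14 times its level. Peg3 was 4.44-fold higher in the G9a/GLP DKO-labelled library (4.14 to 4.76) and 4.48-fold higher in G9a CM (4.19 to 4.79), and the difference between these 2 lines was within counting error. It was 9.75-fold higher in Dnmt3a/3b DKO (8.05 to 11.9) and 4.61-fold higher in Dnmt1/3a/3b TKO (3.78 to 5.67).

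Usp29 stood at 8.18 CPM in the G9a/GLP DKO-labelled library and 11.1 CPM in G9a CM, against 2.12 CPM in WT TT2. It stood at 7.17 CPM in Dnmt3a/3b DKO and 4.93 CPM in Dnmt1/3a/3b TKO, against 0.336 CPM in WT J1. All 4 mutant lines were above all 3 wild-type or control libraries. Under the inhibitor its levels were 1.62 CPM in the control, 2.95 CPM at day 2, 2.32 CPM at day 4 and 2.65 CPM at day 14, and none of the days was called. Usp29 was 3.85-fold higher in the G9a/GLP DKO-labelled library (2.75 to 5.46) and 5.24-fold higher in G9a CM (3.86 to 7.23). The folds over WT J1 were 21.4 in Dnmt3a/3b DKO (8.91 to 67.0) and 14.7 in Dnmt1/3a/3b TKO (6.07 to 46.3), with wide intervals because the WT J1 value rests on few reads. Usp29 overlaps the noncoding gene Zim3 on 11536 bases, and its posterior SD, the uncertainty of assigning reads to the gene, reached 8.0% of its count.

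Among all 10 libraries, both G9a lines were above each of the other 8 for Peg3 and Usp29, which held for 3.63% of the 15911 genes with at least 1 CPM in some library. For Usp29 the gap was within counting error, the G9a/GLP DKO-labelled library having 8.18 CPM (6.69 to 9.92) and Dnmt3a/3b DKO 7.17 CPM (5.95 to 8.57). Of the 10 genes, 0 had both G9a lines below each of the other 8, as 3.39% of genes did. In TPM, which divides by length, Peg3 exceeded Usp29 in every library, from 3.70 times in Dnmt1/3a/3b TKO to 26.6 times in the inhibitor control. The effective length of Peg3 used by the authors' quantification was 8267 to 8474 bases in the 6 lines and 4911 to 6528 bases in the inhibitor series. Its level differed between scales: the inhibitor control had 12.8 TPM and 52.1 CPM, against 5.46 TPM and 46.8 CPM in WT TT2. The median log2 difference of all genes in this comparison was 0.23 in TPM and -0.01 in CPM.

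Of the other genes of this cluster, Zfp264 had 2.28 CPM in the G9a/GLP DKO-labelled library and 1.77 CPM in G9a CM, against 0.157 CPM in WT TT2. It had 2.09 CPM in Dnmt3a/3b DKO and 1.10 CPM in Dnmt1/3a/3b TKO, against 0.134 CPM in WT J1. It was called higher in these lines except Dnmt1/3a/3b TKO. Zfp264 was also called higher at day 2, day 4 and day 14 of UNC0638, at 2.95, 3.74 and 2.39 CPM, against 0.588 CPM in the inhibitor control. Zim2 was listed at 0 counts in WT J1 and had 1.26 CPM in Dnmt1/3a/3b TKO, at least 6.25-fold higher when 3 counts are set as the floor of that WT J1 library. Zfp264 is transcribed near Usp29, and its values are shown for all 7 treated or mutant libraries because it was the gene of the Peg3 cluster called under the inhibitor, a choice made after its values were seen.

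**Figure D2:**
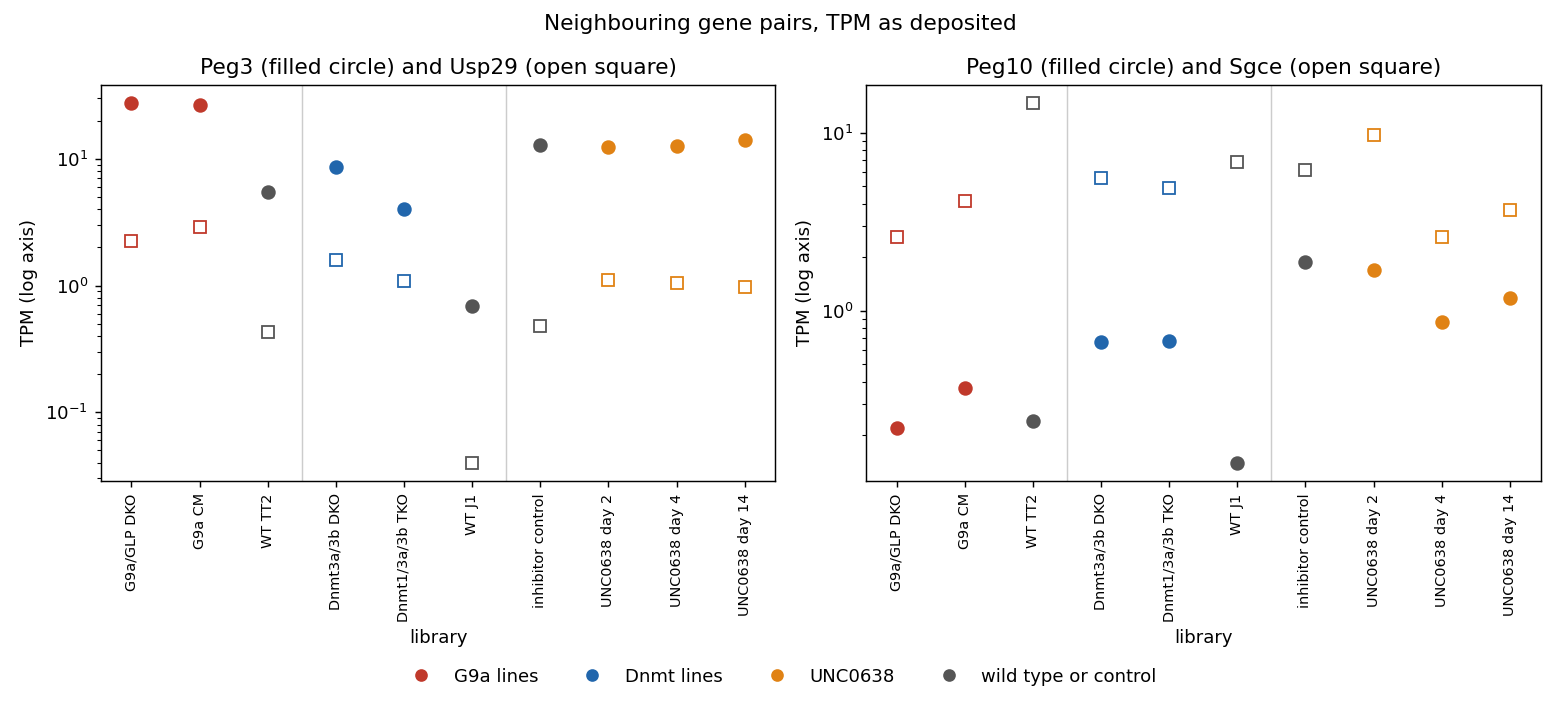
TPM as deposited, on a log axis, for 2 pairs of neighbouring genes in each library, with Peg3 or Peg10 as filled circles and Usp29 or Sgce as open squares, coloured as G9a lines (red), Dnmt lines (blue), UNC0638 (orange) and wild type or control (grey). Peg3 exceeds Usp29 in all 10 libraries, and Sgce exceeds Peg10 in all 10, most widely in WT TT2.

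Peg10 (ENSMUSG00000092035.8) derives from a retrotransposon and is needed for the mouse placenta, and Sgce (ENSMUSG00000004631.15) encodes a sarcoglycan of the cell membrane. They lie at chr6:4747306-4760517 and chr6:4674350-4747204, 102 bases apart. Peg10 stood at 1.26 CPM in the G9a/GLP DKO-labelled library and 2.24 CPM in G9a CM, against 1.57 CPM in WT TT2, and neither line was called. It stood at 4.42 CPM in Dnmt3a/3b DKO and 4.60 CPM in Dnmt1/3a/3b TKO, against 1.21 CPM in WT J1. The folds were 3.66 in Dnmt3a/3b DKO (2.16 to 6.51) and 3.81 in Dnmt1/3a/3b TKO (2.27 to 6.73), and both lines were called. The inhibitor series had 9.91 CPM in the control and 7.38, 4.58 and 5.88 CPM at days 2, 4 and 14. All 3 days were below the control, none of them by the log2 difference of 1 that a call needs, the nearest being day 4 at -0.97.

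Sgce, unlike Peg10, was called in both G9a lines. It stood at 3.38 CPM in the G9a/GLP DKO-labelled library and 5.48 CPM in G9a CM, against 21.2 CPM in WT TT2. It was 6.28-fold lower in the G9a/GLP DKO-labelled library (4.60 to 8.77) and 3.88-fold lower in G9a CM (3.11 to 4.88). The Dnmt lines had 7.89 CPM (Dnmt3a/3b DKO) and 7.50 CPM (Dnmt1/3a/3b TKO), against 14.2 CPM in WT J1, and neither was called. Every mutant line was below both line wild types, yet the inhibitor control itself had only 6.17 CPM, between the G9a lines and the Dnmt lines. With UNC0638, Sgce had 9.16 CPM at day 2, 2.32 CPM at day 4 and 3.42 CPM at day 14. Day 4 was called, 2.66-fold lower than the control, and this call was lost on the TPM scale. The ratio of Peg10 to Sgce in TPM was 0.016 in WT TT2 and 0.020 in WT J1, 0.085 to 0.138 in the 4 mutant lines and 0.175 to 0.335 in the inhibitor series. The inhibitor control at 0.306 lay within the range of the treated cells and above the 4 mutant lines. No share over other gene pairs is given for these ratios. The inhibitor series was wholly above or below the other 6 libraries for 50.5% of 15911 genes.

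Mest (ENSMUSG00000051855.15, chr6:30733506-30748466) encodes a protein of the alpha/beta hydrolase family. Its second annotated start window is shown because it holds the hexamer TGCCGC, the sequence that Zfp57 recognises when it is methylated, on the reverse strand at positions 9 and 184 counted from the 5′ end, and 17 CG dinucleotides, in capitals. It comes from RefSeq, plus strand, chr6:30737800-30738099.

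Mest start window: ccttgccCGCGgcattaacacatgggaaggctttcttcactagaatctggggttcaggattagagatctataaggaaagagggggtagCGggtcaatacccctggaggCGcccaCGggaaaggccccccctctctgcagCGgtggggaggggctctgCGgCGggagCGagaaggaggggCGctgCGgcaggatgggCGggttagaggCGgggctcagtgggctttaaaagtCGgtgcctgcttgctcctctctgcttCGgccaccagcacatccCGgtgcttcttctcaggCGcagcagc

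TGCCGC, searched on both strands, was present in 11.6% of all 32817 start windows of the same length, and the median window had 7 CG dinucleotides. Start windows of 7 of the 10 genes were at hand. Of these 7 genes, Mest, Snrpn, Plagl1 and Nnat had TGCCGC in at least 1 window, and Peg3, Usp29 and Ndn had none. This counts genes, and Mest and Snrpn had several windows, whereas the 11.6% is a share of windows. No share of genes is given, so the count is not set against it. The motif GCCATNTT of the factor YY1 was in none of the 12 windows of these genes, against 6.04% of all windows. A match is a run of letters and does not show binding.

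Mest had 159 CPM in the G9a/GLP DKO-labelled library and 209 CPM in G9a CM, against 166 CPM in WT TT2. The Dnmt lines had 168 CPM (Dnmt3a/3b DKO) and 198 CPM (Dnmt1/3a/3b TKO), against 99.6 CPM in WT J1. No mutant line was called, although Dnmt1/3a/3b TKO was just short of the threshold at 1.99 times WT J1 (1.87 to 2.12). The inhibitor control had 442 CPM, with 174 CPM at day 2, 360 CPM at day 4 and 431 CPM at day 14. Day 2 stood apart: it was 2.54-fold lower than the control, and day 14 was within counting error of it. Mest shares 913 bases with Copg2, a coat protein gene on the other strand. Copg2 followed another order, at 13.3 CPM on day 2 against 9.99 CPM in the inhibitor control.

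Snrpn (ENSMUSG00000102252.5, chr7:59982495-60450177) encodes a protein of the spliceosome and Ndn (ENSMUSG00000033585.5, chr7:62348277-62349928) encodes necdin, a growth suppressor of neurons. Both belong to the cluster that corresponds to the human Prader-Willi region. The Snrpn start window that is also the start of Snurf is shown, because Snrpn had the highest TPM of the 10 genes in 8 libraries and was called lower in 1 G9a line and higher in both Dnmt lines. It has 7 CG dinucleotides in capitals and TGCCGC, on the reverse strand, at position 249. It comes from RefSeq, minus strand, chr7:60005150-60005449.

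Snrpn start window: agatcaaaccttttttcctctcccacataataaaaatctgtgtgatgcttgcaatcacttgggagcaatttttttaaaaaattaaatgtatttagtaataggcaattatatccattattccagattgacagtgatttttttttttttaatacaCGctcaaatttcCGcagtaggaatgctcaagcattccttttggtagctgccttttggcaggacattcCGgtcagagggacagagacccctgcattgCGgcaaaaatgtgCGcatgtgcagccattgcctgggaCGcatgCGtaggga

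Snrpn stood at 372 CPM in the G9a/GLP DKO-labelled library and 1024 CPM in G9a CM, against 982 CPM in WT TT2. The G9a/GLP DKO-labelled library was 2.64-fold lower than WT TT2 (2.56 to 2.73), and G9a CM was 1.04 times WT TT2 and not called. Between the lines themselves, the G9a/GLP DKO-labelled library had 0.363 times the level of G9a CM (0.352 to 0.375). In the Dnmt lines Snrpn stood at 385 CPM (Dnmt3a/3b DKO) and 473 CPM (Dnmt1/3a/3b TKO), against 141 CPM in WT J1. It was 2.72-fold higher in Dnmt3a/3b DKO (2.59 to 2.86) and 3.34-fold higher in Dnmt1/3a/3b TKO (3.19 to 3.51). Both levels were still below the 982 CPM of WT TT2. The inhibitor control had 1556 CPM, and the cells had 781, 1157 and 867 CPM at days 2, 4 and 14. All 3 days were below the control, by 0.99, 0.43 and 0.84 on the log2 scale, and none passed the threshold. Snurf, whose annotated span lies within that of Snrpn, took 0.171% to 1.11% of their joint count, with a posterior SD of up to 41.7% of its own count, against 0.333% for Snrpn.

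Ndn had 9.92 CPM in the G9a/GLP DKO-labelled library and 7.66 CPM in G9a CM, against 13.6 CPM in WT TT2. It had 17.6 CPM in Dnmt3a/3b DKO and 9.80 CPM in Dnmt1/3a/3b TKO, against 6.85 CPM in WT J1. Dnmt3a/3b DKO was called, 2.57-fold higher (2.04 to 3.25), and the other 3 lines were not. The inhibitor series ran from 23.8 CPM at day 4 to 28.5 CPM at day 14, with 26.9 CPM in the control and 26.4 CPM at day 2. Its 4 libraries were above all 6 others, and none of the days differed from the control beyond counting error.

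Plagl1 (ENSMUSG00000019817.18, chr10:13090832-13131694) encodes a zinc finger protein that regulates other imprinted genes in the mouse. It stood at 6.30 CPM in the G9a/GLP DKO-labelled library and 1.53 CPM in G9a CM, against 4.01 CPM in WT TT2. The 2 G9a lines lay on opposite sides of their wild type, and the G9a/GLP DKO-labelled library had 4.11 times the level of G9a CM (2.61 to 6.67). Neither was called, and G9a CM, at a log2 difference of -0.99, became a call with a pseudocount of 0.5 CPM. Without Dnmt3a and Dnmt3b, Plagl1 stood at 8.84 CPM, and in Dnmt1/3a/3b TKO at 14.0 CPM, against 3.62 CPM in WT J1. It was 2.44-fold higher in Dnmt3a/3b DKO (1.78 to 3.40) and 3.85-fold higher in Dnmt1/3a/3b TKO (2.86 to 5.27). These 2 libraries were its highest among all 10. In the inhibitor series its levels were 1.54 CPM in the control, 2.75 CPM at day 2, 3.09 CPM at day 4 and 2.65 CPM at day 14, and none of the days was called.

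Impact (ENSMUSG00000024423.5, on chromosome 18) encodes an inhibitor of the amino acid sensor Gcn2. It stood at 210 CPM in the G9a/GLP DKO-labelled library and 331 CPM in G9a CM, against 397 CPM in WT TT2. The Dnmt lines had 834 CPM (Dnmt3a/3b DKO) and 513 CPM (Dnmt1/3a/3b TKO), against 514 CPM in WT J1. No mutant line was called, the G9a/GLP DKO-labelled library having 0.529 times WT TT2 (0.506 to 0.552) and Dnmt3a/3b DKO 1.62 times WT J1 (1.58 to 1.67). The inhibitor control had 107 CPM, followed by 109, 93.2 and 112 CPM at days 2, 4 and 14. All 4 were below the other 6 libraries, and the 3 days had 0.87 to 1.05 times the level of the control.

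Nnat (ENSMUSG00000067786.16, chr2:157560078-157562525) encodes neuronatin, a small membrane protein, and sits wholly within the Blcap gene. Its start window has 17 CG dinucleotides, in capitals, and TGCCGC on the reverse strand at position 278, and it is shown because Nnat had the widest range of the 10 genes, 45.2-fold between its highest and lowest library. It comes from RefSeq, plus strand, chr2:157559828-157560127.

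Nnat start window: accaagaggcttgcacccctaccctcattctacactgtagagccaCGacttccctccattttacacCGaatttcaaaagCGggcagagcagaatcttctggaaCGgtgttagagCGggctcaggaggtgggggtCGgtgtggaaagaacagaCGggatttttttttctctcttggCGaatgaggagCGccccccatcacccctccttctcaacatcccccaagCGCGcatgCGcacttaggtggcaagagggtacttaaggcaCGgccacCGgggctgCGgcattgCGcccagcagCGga

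Nnat stood at 1.97 CPM in the G9a/GLP DKO-labelled library and 11.4 CPM in G9a CM, against 12.8 CPM in WT TT2. It was 6.50-fold lower in the G9a/GLP DKO-labelled library (4.32 to 10.2), and G9a CM was within counting error of WT TT2. The Dnmt lines had 3.05 CPM (Dnmt3a/3b DKO) and 1.59 CPM (Dnmt1/3a/3b TKO), against 2.01 CPM in WT J1, and both were within counting error of it. The 4 libraries of the inhibitor series were well above the rest, at 71.8 CPM in the control and 46.7, 58.3 and 65.6 CPM at days 2, 4 and 14. None of the days was called. Blcap ranged only from 7.77 to 20.4 CPM over the 10 libraries.

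**Figure D3:**
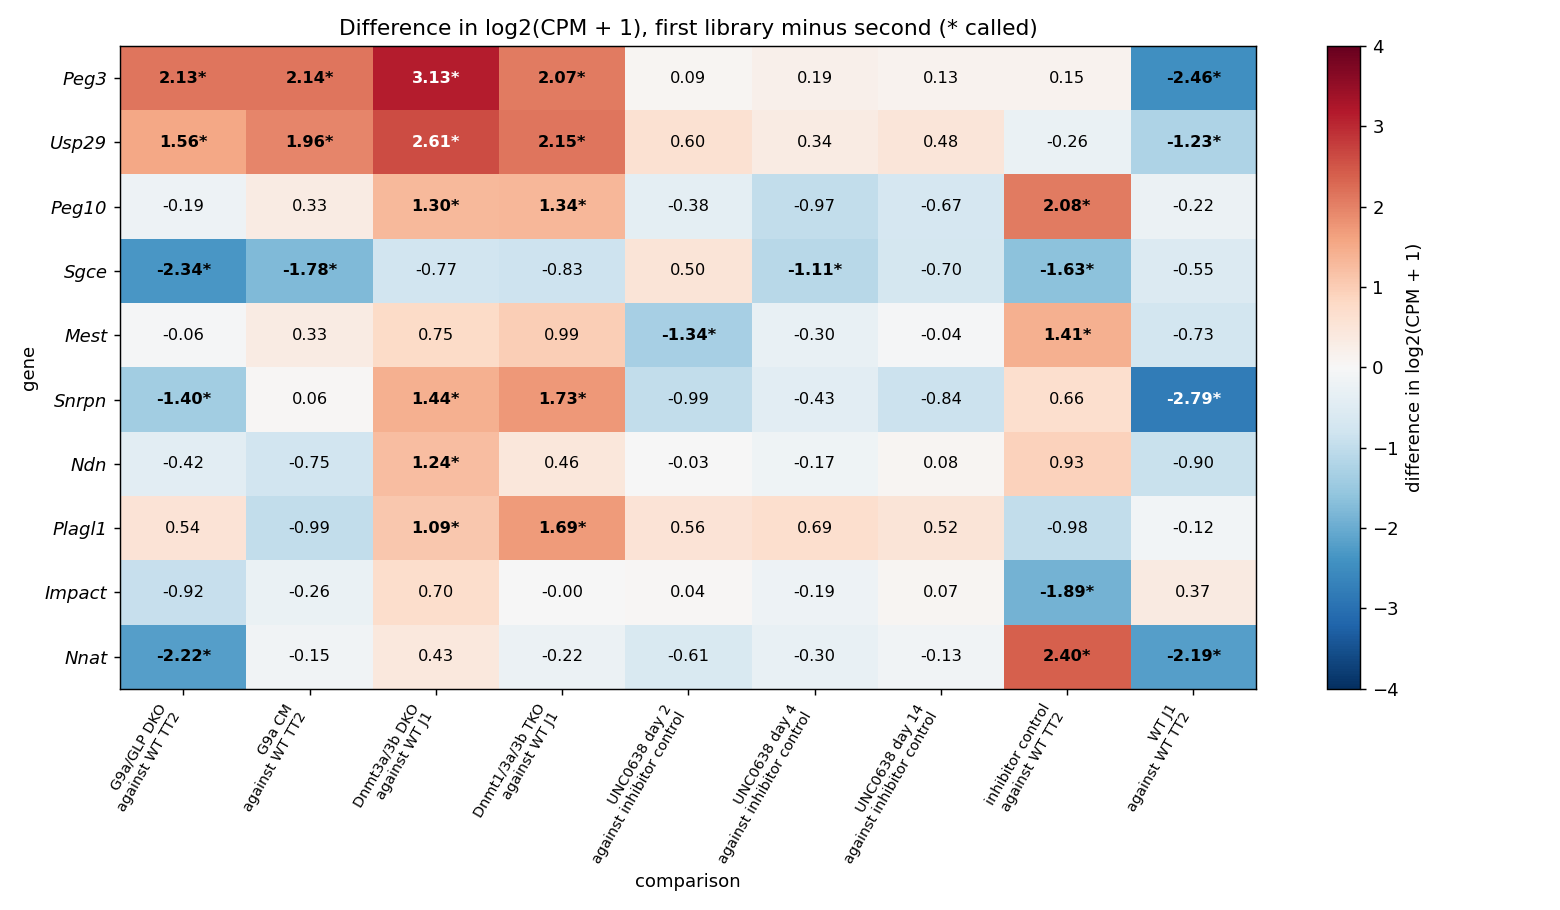
Difference in log2(CPM + 1) between the libraries of each comparison, first library minus second, for each of the 10 genes, red where the first library has more and blue where it has less, with called genes in bold and starred. Peg3 and Usp29 are called higher in all 4 mutant lines, whereas at days 2, 4 and 14 of UNC0638 only Mest (day 2) and Sgce (day 4) are called.

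In the G9a/GLP DKO-labelled library, 2 of the 10 genes were higher (Peg3 and Usp29) and 3 lower (Sgce, Snrpn and Nnat). Of 14027 genes tested, 9.77% were higher and 7.09% lower. The median log2 difference of the 10 genes was -0.30, against 0.04 over all genes. In G9a CM, 2 genes were higher (Peg3 and Usp29) and 1 lower (Sgce), where 5.4% of 13504 genes were higher and 5.07% lower, and the median was -0.04 against -0.03 over all genes. These comparisons share the WT TT2 library, whose own value enters both. With the inhibitor control in place of WT TT2, Peg3 and Usp29 were still called higher in both lines, Plagl1 was also called higher in the G9a/GLP DKO-labelled library and Impact in G9a CM, and Sgce was no longer called in either. The genes then lower were Peg10, Mest, Snrpn, Ndn and Nnat in the G9a/GLP DKO-labelled library and Peg10, Mest, Ndn and Nnat in G9a CM. No share over all genes is given for this swap, so these calls are not read as a result about the 10 genes. The inhibitor control itself had 25.2% of 13667 genes higher and 22.0% lower than WT TT2.

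Of 21 other paternally expressed imprinted genes, 13 were measured in each G9a line, meaning at least 1 CPM in either library. In the G9a/GLP DKO-labelled library 4 were higher and 1 lower, and in G9a CM 2 were higher and 1 lower. The 1 lower in the G9a/GLP DKO-labelled library was Snurf, whose span lies within that of Snrpn, so it is not apart from the Snrpn call. Sfmbt2, a Polycomb-related gene, stood at 54.3 CPM in the G9a/GLP DKO-labelled library and 52.5 CPM in G9a CM, against 8.22 CPM in WT TT2. Of 29 maternally expressed imprinted genes, 20 were measured, with 6 higher and 1 lower in the G9a/GLP DKO-labelled library and 5 higher and 2 lower in G9a CM. H19, a maternally expressed noncoding RNA, stood at 26.8 CPM in the G9a/GLP DKO-labelled library and 41.7 CPM in G9a CM, against 5.27 CPM in WT TT2. Calls in these lines were thus made among genes expressed from either parental copy. Of 23 factors that keep or remove imprints, all measured, 5 were higher and 1 lower in the G9a/GLP DKO-labelled library, and 4 were higher and 1 lower in G9a CM. Ehmt1, a targeted gene of the G9a/GLP DKO line, was the 1 lower there. Zfp57 had 130 CPM in the G9a/GLP DKO-labelled library and 129 CPM in G9a CM, against 56.6 CPM in WT TT2. Dnmt3l, a cofactor of the de novo enzymes, had 180 CPM in the G9a/GLP DKO-labelled library and 349 CPM in G9a CM, against 73.8 CPM in WT TT2.

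Summed trophoblast markers stood at 78.1 CPM in the G9a/GLP DKO-labelled library and 98.7 CPM in G9a CM, against 55.9 CPM in WT TT2. Tfap2c, the largest part of each sum, went the other way. It had 26.1 CPM in the G9a/GLP DKO-labelled library and 31.8 CPM in G9a CM, against 36.1 CPM in WT TT2. Of 8 measured trophoblast markers 4 were higher in the G9a/GLP DKO-labelled library, and of 7 measured 3 were higher in G9a CM, while Cdx2 was at 0 in all 3 libraries. Ascl2, on this list, is also among the maternally expressed imprinted genes. The 9 neural markers summed to 535 CPM in both lines, against 316 CPM in WT TT2, and Dcx was at 0 in all 3. Most of that sum was Stmn2, at 482 CPM in the G9a/GLP DKO-labelled library and 492 CPM in G9a CM, against 277 CPM in WT TT2, and of the 5 neural markers measured in each line 0 were higher and 1 (Map2) was lower. Their part in the levels of the imprinted genes was not tested.

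The Dnmt lines gave calls in 1 direction. In Dnmt3a/3b DKO, 6 of the 10 genes were higher (Peg3, Usp29, Peg10, Snrpn, Ndn and Plagl1) and 0 lower, where 9.23% of 13743 genes were higher and 9.89% lower. In Dnmt1/3a/3b TKO, 5 were higher (Peg3, Usp29, Peg10, Snrpn and Plagl1) and 0 lower, where 11.0% of 13924 genes were higher and 10.6% lower. The median log2 difference of the 10 genes was 1.17 in Dnmt3a/3b DKO and reached 1.16 in Dnmt1/3a/3b TKO, against 0.01 and -0.02 over all genes in those comparisons. Both comparisons share WT J1, the lowest of the 10 libraries for 6 of the 10 genes. For Peg10 and Ndn the next library was within counting error of it. The share of all genes that are lowest in WT J1 is not given here, so this is a description only. With WT TT2 as the control, 3 genes were higher (Usp29, Peg10 and Impact) and 3 lower (Sgce, Snrpn and Nnat) in Dnmt3a/3b DKO, and 2 were higher (Peg10 and Plagl1) and 3 lower (Sgce, Snrpn and Nnat) in Dnmt1/3a/3b TKO. WT TT2 is of another strain than the Dnmt lines, so that strain and genotype cannot be told apart there. No share over all genes is given for this control, so these counts are not read as a result about the 10 genes. WT J1 itself had 12.5% of 13735 genes higher and 11.0% lower than WT TT2.

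Among the lines themselves, Dnmt1/3a/3b TKO had 0.473 times the Peg3 level of Dnmt3a/3b DKO (0.430 to 0.521), 0.558 times its Ndn level (0.461 to 0.674) and 0.615 times its Impact level (0.599 to 0.631). Usp29 and Nnat were also lower in Dnmt1/3a/3b TKO, at 4.93 against 7.17 CPM and at 1.59 against 3.05 CPM. Plagl1 went the other way, at 1.58 times the level of Dnmt3a/3b DKO (1.28 to 1.95). So did Snrpn, at 1.23 times that level (1.19 to 1.27), and Mest, at 198 CPM against 168 CPM. Peg10 and Sgce were within counting error between these lines. Levels in Dnmt1/3a/3b TKO were thus below those of Dnmt3a/3b DKO for some of these genes and above them for others.

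Of the 21 other paternally expressed genes, 4 of 14 measured were higher in Dnmt3a/3b DKO and 5 of 16 in Dnmt1/3a/3b TKO, with 0 lower in either. Snurf, within the span of Snrpn, was among those higher in Dnmt1/3a/3b TKO. Sfmbt2 stood at 26.8 CPM in Dnmt3a/3b DKO and 23.9 CPM in Dnmt1/3a/3b TKO, against 5.91 CPM in WT J1. Nap1l5, a nucleosome assembly protein gene, had 2.15 CPM in Dnmt3a/3b DKO and 2.25 CPM in Dnmt1/3a/3b TKO, against 0.470 CPM in WT J1. The maternally expressed genes gave calls in both directions, with 5 higher and 5 lower of 19 measured in Dnmt3a/3b DKO and 7 higher and 6 lower of 20 in Dnmt1/3a/3b TKO. H19 was the furthest up, at 40.6 CPM in Dnmt3a/3b DKO and 39.9 CPM in Dnmt1/3a/3b TKO, against 0.805 CPM in WT J1. Among imprint factors, 4 of 23 were higher in each line, with 2 lower in Dnmt3a/3b DKO and 3 lower in Dnmt1/3a/3b TKO, the targeted genes among the lower ones. Dppa3, which protects maternal methylation in the early mouse embryo, had 292 CPM in Dnmt3a/3b DKO and 199.9 CPM in Dnmt1/3a/3b TKO, against 4.77 CPM in WT J1.

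The trophoblast list moved in the same comparisons, with 5 of 8 measured markers higher in Dnmt3a/3b DKO (median log2 difference 1.21) and 7 of 9 higher in Dnmt1/3a/3b TKO (median 1.08), and 0 lower in either. It summed to 84.1 CPM in Dnmt3a/3b DKO and 79.8 CPM in Dnmt1/3a/3b TKO, against 31.5 CPM in WT J1, and Cdx2 was at 0 in all 3. The neural list summed to 690 CPM in Dnmt3a/3b DKO and 671 CPM in Dnmt1/3a/3b TKO, against 44.6 CPM in WT J1, with 3 of 6 measured markers higher in each line. Most of this sum was Stmn2, at 626 CPM in Dnmt3a/3b DKO and 621 CPM in Dnmt1/3a/3b TKO, against 24.4 CPM in WT J1. Dcx, a marker of young neurons, was at 0 in Dnmt1/3a/3b TKO and WT J1 and at 0.0598 CPM in Dnmt3a/3b DKO. The ES cell markers gave 4 lower of 14 in each line, the pluripotency factor Klf4 standing at 30.6 CPM in Dnmt3a/3b DKO and 34.4 CPM in Dnmt1/3a/3b TKO, against 90.5 CPM in WT J1. Their part in the imprinted gene levels was not tested.

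UNC0638 gave few calls among the 10 genes. At day 2, 0 were higher and 1 (Mest) lower, where 3.12% of 13294 genes were higher and 1.84% lower. At day 4, 0 were higher and 1 (Sgce) lower, where 1.95% of 13112 genes were higher and 0.671% lower. At day 14, 0 were called in either direction, where 2.92% of 13269 genes were higher and 0.535% lower. The median log2 difference of the 10 genes was 0.01 at day 2, -0.24 at day 4 and 0.02 at day 14, and all 3 days share the same control library. Peg3, which was over 4-fold higher in both G9a lines than in WT TT2, had 1.06 times the inhibitor control level at day 2 (0.97 to 1.17). It had 1.14 times that level at day 4 (1.04 to 1.26) and 1.10 times at day 14 (0.99 to 1.21). The G9a lines and the inhibitor days have different controls, and these intervals cover counting error of single libraries only. Whether the inhibitor and the mutant lines differ in Peg3 was not tested. Snurf was called lower at day 4 and day 14, at 2.02 and 1.49 CPM, against 5.29 CPM in the inhibitor control. Krt8 and Krt18, keratins on the trophoblast list, were called lower on all 3 days, Krt8 at 5.55, 4.52 and 24.2 CPM against 60.4 CPM in the inhibitor control. Gata3, on the same list, was called higher at day 4 (4.93 CPM) and day 14 (5.04 CPM), against 1.32 CPM in the inhibitor control. The primitive endoderm list had 3 of 7 measured markers higher at day 14, with a median log2 difference of 0.99 and a sum of 40.6 CPM, against 26.5 CPM in the inhibitor control. The part of these markers in the values of the 10 genes was not tested.

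The wild-type and control libraries also differed from each other. In the inhibitor control, 3 genes were higher (Peg10, Mest and Nnat) and 2 lower (Sgce and Impact) than in WT TT2, which has the same strain and genotype in the labels, where 25.2% of 13667 genes were higher and 22.0% lower. Peg10 was 6.30-fold higher (4.40 to 9.21), Nnat 5.62-fold higher (4.95 to 6.39) and Impact 3.72-fold lower (3.52 to 3.94). Over the 4 libraries of the inhibitor series, Ndn and Nnat were above all 6 others and Impact was below them. These are 3 of the 10 genes, and 50.5% of the 15911 genes were likewise wholly above or below. The DMSO treatment and the set of libraries cannot be told apart. On the TPM scale, where a call used no count interval, Peg3, Snrpn and Ndn were also called higher in the inhibitor control. No share over all genes is given for that scale. Marker lists differed in the same comparison. Of the trophoblast markers 6 of 9 measured were higher (median log2 difference 1.35, sum 205 CPM in the inhibitor control against 55.9 CPM in WT TT2), and of the primitive endoderm markers 3 of 5 (median 1.11). The ES cell markers had 4 of 14 higher and 3 lower, and Pou5f1, the gene of Oct4, stood at 455 CPM in the inhibitor control, against 12.5 CPM in WT TT2. Their part in the values of the 10 genes was not tested.

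In WT J1, 0 of the 10 genes were higher and 4 lower (Peg3, Usp29, Snrpn and Nnat) than in WT TT2, where 12.5% of 13735 genes were higher and 11.0% lower. Peg3 was 6.07-fold lower (5.01 to 7.41), Usp29 6.33-fold lower (2.55 to 20.3), Snrpn 6.94-fold lower (6.64 to 7.26) and Nnat 6.35-fold lower (4.36 to 9.56). The median log2 difference of the 10 genes was -0.81, against 0.02 over all genes. Over the 3 wild-type or control libraries, the ratio of highest to lowest ran from 2.60 for Plagl1 to 35.7 for Nnat. All 4 mutant lines were outside that wild-type range for 2 of the 10 genes, Usp29 and Plagl1, as they were for 11.2% of the 15911 genes with at least 1 CPM in some library. For Peg3 3 lines were outside it, for Sgce and Nnat 2, for Impact 1, and for Peg10, Mest, Snrpn and Ndn 0. Both lines outside it for Nnat, the G9a/GLP DKO-labelled library and Dnmt1/3a/3b TKO, were within counting error of WT J1. Sgce in G9a CM was within counting error of the inhibitor control. For Usp29 all 4 lines were above the range, whereas for Plagl1 G9a CM was below it and the other lines were above it. The gap of Plagl1 in G9a CM was within counting error, at 1.53 CPM against 1.54 CPM in the inhibitor control. Dppa3 also differed between the wild types, at 4.77 CPM in WT J1 against 549 CPM in WT TT2. The primitive endoderm markers had 6 of 7 measured higher in WT J1 than in WT TT2 (median log2 difference 1.34, sum 55.3 CPM in WT J1 against 19.2 CPM in WT TT2), and the ES cell markers had 4 of 14 higher and 0 lower. Stmn2 was 11.3-fold lower in WT J1, and the part of these markers in the values of the 10 genes was not tested.

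**Figure D4:**
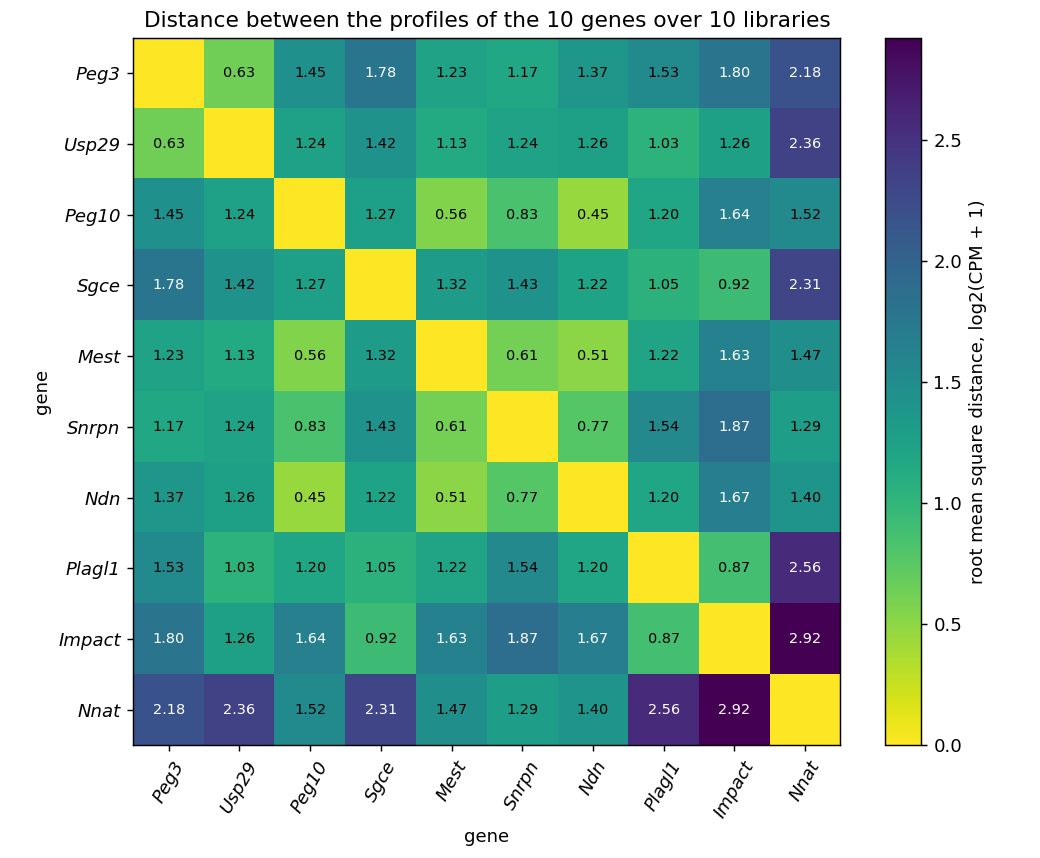
Root mean square distance between the profiles of the 10 genes over the 10 libraries, each profile being log2(CPM + 1) minus its own mean. Small values mark genes with like profiles or with little change over the libraries: Peg10 and Ndn are nearest at 0.45, Peg3 and Usp29 are at 0.63, and Impact and Nnat are farthest apart at 2.92.

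Profiles over the 10 libraries were compared by the root mean square distance of log2(CPM + 1) after centring each gene, as a description. Peg10 and Ndn, on different chromosomes, were the nearest of the 45 pairs at 0.45, followed by Mest and Ndn at 0.51. Of the 2 neighbour pairs, Peg3 and Usp29 were at 0.63, the fifth nearest, whereas Peg10 and Sgce were at 1.27. Snrpn and Ndn, of the same cluster but 1898100 bases apart, were at 0.77. The libraries share strain and set, which weigh in all these distances. Profiles were centred but not scaled, so genes of small span can lie near each other whatever their order of libraries. The log2 spans of Ndn, Mest and Peg10 were 1.91, 2.14 and 2.31, against 4.59 for Peg3.

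The nearest of 9513 other genes was named for each gene with a span of at least 2 on the log2 scale, which left out Ndn. For Peg3 it was the homeobox gene Rhox9 at a distance of 0.58, with 35.4 CPM in the G9a/GLP DKO-labelled library, 42.2 CPM in G9a CM and 1.41 CPM in WT J1. For Usp29 it was Lgals9, which encodes galectin-9, at 0.28. For Peg10 it was the kinase gene Pak1 at 0.28, and for Sgce it was Tmem170 at 0.35. Mest was nearest to Rufy1 at 0.20, and Snrpn to the ubiquitin ligase gene Rnf135 at 0.35. Plagl1 was nearest to the palmitoyltransferase gene Zdhhc5 at 0.35, Impact to the deubiquitinase gene Zranb1 at 0.22 and Nnat to Pianp at 0.38.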

How the data were processed

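RNA of mouse ES cells was measured by Smart-seq2, per the labels' protocols. Per the submitters' processing notes, STAR 2.5.3a and RSEM were used with GRCm38 and mm10; no source used here says whether counting used strand. The deposited tables give, per gene, the authors' expected count, the authors' TPM and the posterior SD of the count (a signal-like, non-negative value deposited with it), and the effective length, another deposited value. Expected counts were rounded (4.26% to 6.17% of genes were not whole) and scaled to CPM with TMM factors (edgeR 4.0.16, R 4.3.3) over 15906 genes; rows without a symbol held at most 0.0674% of counts. Python 3.11.15, scipy 1.17.1 and DESeq2 1.42.0 (for other size factors) were also used. Symbols were matched for 99.7% of gene IDs.

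With 1 library per group there was no test and no p-value. Calls needed a log2(CPM + 1) difference of 1, at least 1 CPM, and an exact 95% (Clopper-Pearson) interval of the count ratio that left out 1. Intervals cover counting error only, since each group had 1 library. Reads had no molecular identifiers, so copies of a molecule could not be told apart and the intervals take each read as a separate count. The floor was 3 counts per library, 0.118 to 0.236 CPM. The steps were tested on simulated data. In each list the up to 4 called genes with the largest difference could be named, and other names are given where the text says so or for a marker at 0. The 10 genes, the lists and the comparisons were chosen with earlier results of these data known. Alternatives were other scalings, TPM, posterior mean counts, a pseudocount of 0.5 CPM, no minimum and another control library. Positions and start windows come from RefSeq (GRCm38.p6).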

Additional observations from a re-analysis of the deposited data

How the results depend on the processing

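Of 122 counts of called genes under alternatives, 105 stayed within 1.5 times of the value reported, and 17 did not. Most of the 17 came from another control library. With the inhibitor control in place of WT TT2, the number lower was 5 in the G9a/GLP DKO-labelled library (3 reported) and 4 in G9a CM (1 reported). With WT TT2 in place of WT J1, 3 were higher and 3 lower in Dnmt3a/3b DKO, and 2 were higher and 3 lower in Dnmt1/3a/3b TKO. With WT TT2 in place of the inhibitor control, 2 were higher and 2 lower at day 2, 3 were higher and 2 lower at day 4, and 4 were higher and 2 lower at day 14. No share over all genes is given for these other controls, so the counts describe the dependence on the control only. A pseudocount of 0.5 CPM gave 2 lower in G9a CM and 2 at day 4. DESeq2 size factors gave 2 lower at day 2. The TPM scale gave 0 lower at day 4 and 6 higher in the inhibitor control against WT TT2. A call on that scale needed a log2(TPM + 1) difference of at least 1 and at least 1 TPM in either library, without a count interval. No share over all genes is given for the TPM counts, and the median of all genes in the latter comparison was 0.23 in TPM against -0.01 in CPM. The TPM counts are thus not read as a result about the 10 genes. Of 610 log2 differences, 4 were counted as reversed, each of them a call in the comparison reported and all with WT TT2 as the control. They were Snrpn in Dnmt3a/3b DKO (-1.35), Peg3 in Dnmt1/3a/3b TKO (-0.39), Snrpn in Dnmt1/3a/3b TKO (-1.05) and Mest at day 2 (0.065). Differences that were not called also changed sign with another control library and are not in this count. Ndn in Dnmt1/3a/3b TKO, at 9.80 CPM, was above WT J1 (6.85 CPM) but below WT TT2 (13.6 CPM). Impact in the G9a/GLP DKO-labelled library, at 210 CPM, was below WT TT2 (397 CPM) but above the inhibitor control (107 CPM). The cause was not tested.

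Scaling by total count shifted the median of all genes by up to 0.20, and TPM by up to 0.29, on the log2 scale. No paired analysis was possible because each group had 1 library. For the same reason no replicate could be left out, and differences between cultures of a line cannot be told apart from those between lines. Depth limits Usp29 in WT J1 most, and Peg10, Plagl1 and Sgce where they had few reads.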
